A study of Mus musculus with 2 samples.

Results

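The genes described here are 9 transcription factors of the macrophage lineage, *Spi1*, *Cebpa*, *Cebpb*, *Cebpd*, *Maf*, *Klf2*, *Klf4*, *Klf6* and *Runx1*. They were taken by name from the 20655 genes that could be named on the array, and all 10 of their probes were read, 2 of them for *Runx1* and 1 for each of the other 8. Gene expression was measured on 2 Agilent single-colour mouse arrays, with 1 array of RAW264.7 cells treated with vehicle and 1 array of RAW264.7 cells treated with IR-61. IR-61 was given at 10 μM, and the treatment lasted 24 h in both conditions. RAW264.7 is an established macrophage-like line from a tumour that Abelson murine leukemia virus induced in an adult male BALB/c mouse, so both arrays share this transformed background and a single line. IR-61 is a near-infrared dye that the study describes as accumulating in mitochondria, and the arrays ask how it changes macrophage gene expression.

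The identity of a macrophage rests on a small set of DNA-binding proteins. PU.1, the ETS factor encoded by *Spi1*, opens myeloid enhancers, and RUNX1 acts upstream of it in blood cell formation. C/EBP proteins, which are basic leucine zipper factors, bind many of the same enhancers and direct both the choice of the myeloid fate and the inflammatory response. MAF marks mature resident macrophages, where it restrains self-renewal, and the zinc finger proteins KLF2, KLF4 and KLF6 set how strongly a macrophage responds to inflammatory signals.

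With 1 array per condition, no test between vehicle and IR-61 could be made, and the difference between cultures is unknown. The only error that could be measured was the spread between spots of the 399 probes printed 10 times on each array. Its SD for the difference of a single spot between the arrays is given as the SD between spots. A difference is the log2 signal with IR-61 minus that with vehicle, after the 75th percentile of each array was subtracted, and signals in the text are the processed signals before this scaling. The 75th percentile was higher by 0.49 on the log2 scale on the IR-61 array. After scaling, the median difference of the 16888 genes well above background on both arrays was 0.10, with an SD over genes of 0.44, and without scaling it was 0.59. An array reads the RNA of the whole culture, so that fewer expressing cells and less RNA per cell cannot be told apart.

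The macrophage label was checked against 11 marker genes, of which 10 were named on the array. All 10 were well above background on both arrays, as were 16888 of the 20655 named genes, so this call alone does not set macrophages apart. The 10 markers had a median difference of −0.07 (0.42 without scaling), from −0.98 for *Cd14* to 1.03 for *Adgre1*, the gene of F4/80. Of 24 markers of other cell types, 23 were named, 16 were well above background on both arrays and 6 on neither, and 0 of those measured on both differed by 2-fold or more. Genes of other cell types with high signals included *Col1a1*, a fibroblast collagen, at 27148 with vehicle and 58670 with IR-61. Its scaled difference was 0.62, while that of the collagen gene *Col3a1* (5152 and 5697) was −0.34, or 0.15 without scaling. *Dcn*, another matrix gene, was at 16543 and 21738, and *Elane*, a granulocyte protease, at 7009 and 11056. The T cell gene *Cd3e* was dimmer, at 684 and 957. The osteoclast genes *Ctsk* and *Acp5*, a protease and a phosphatase, were also high, at 122108 and 152093 for *Ctsk*, a scaled difference of −0.17 that was 0.32 without scaling, and at 81155 and 135012 for *Acp5*, a scaled difference of 0.25. Both cultures were labelled as the single line RAW264.7, and the source of these signals was not tested.

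All 9 lineage factors were well above background on both arrays, as were 16888 of the 20655 named genes. Their probes had signals from 625 to 129298, while the lowest signal of a probe well above background was 11.4 with vehicle and 14.5 with IR-61. None of the probes was saturated. None of the 9 genes was lower by 2-fold or more, as were 1.39% of all measured genes, and none was higher by 2-fold or more, as were 1.99%. At 1.5-fold, 2 of the 9 were lower, *Spi1* and *Klf2*, against 5.68% of all measured genes, and 1 was higher, *Maf*, against 9.79%. These shares of all measured genes also stand beside the counts of every list below. The median difference of the 9 genes was −0.34, and 8 of them lay below the median of all measured genes. Without scaling, which shifts all genes alike, the median of the 9 was 0.14. Without scaling *Spi1* and *Klf2* no longer reached 1.5-fold, with differences of −0.34 and −0.22.

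**Figure D1:**
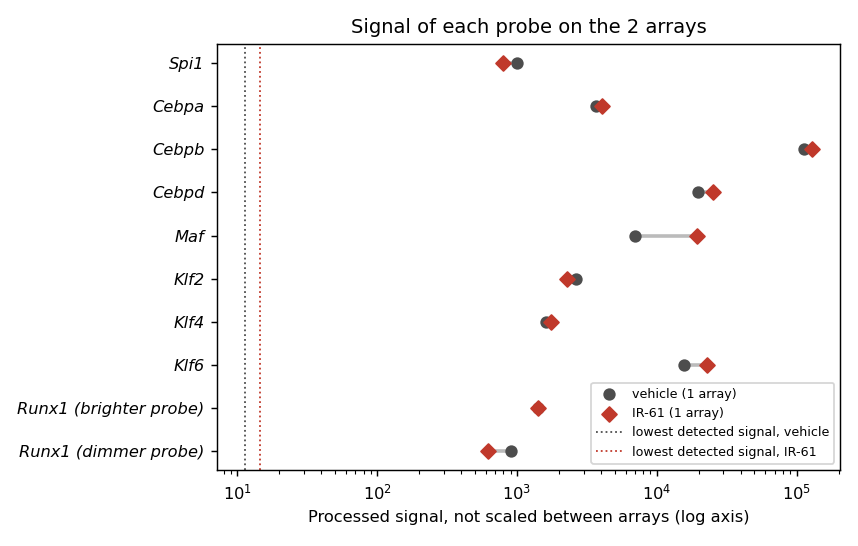
Processed signal of the 10 probes of the lineage factors on the vehicle array (grey circles) and the IR-61 array (red diamonds), before scaling between arrays, on a log axis. The dotted lines are the lowest signals of a probe well above background, 11.4 and 14.5, and points should be compared within a row only, since probes differ in their response. *Maf* has the widest gap, from 7007 to 19398, and *Spi1*, *Klf2* and both probes of *Runx1* have the lower signal on the IR-61 array.

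**Figure D2:**
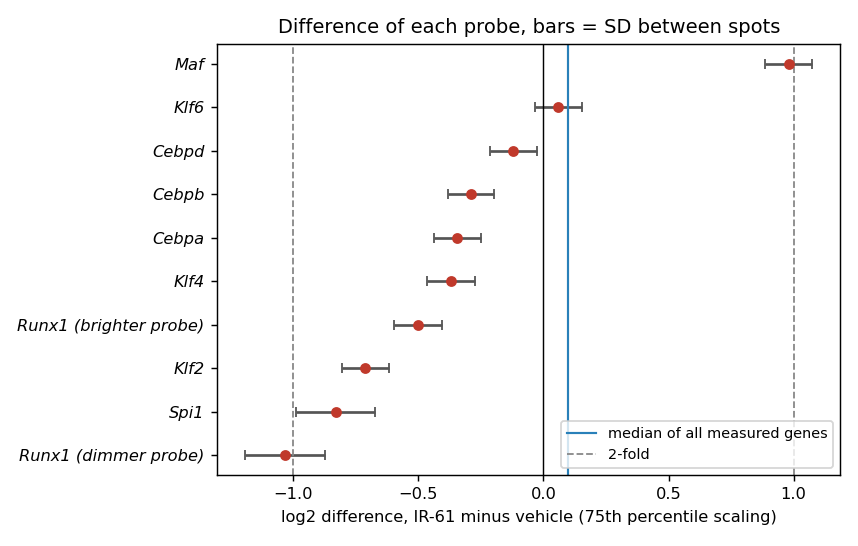
Scaled log2 difference, IR-61 minus vehicle, of each probe, with bars of 1 SD between spots. The blue line is the median of all measured genes at 0.10 and the dashed lines are 2-fold differences. *Maf* stands at 0.98, *Klf6* lies next to the median gene at 0.06, and the other 8 probes lie below it.

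*Spi1* encodes PU.1, the master regulator of myeloid enhancers. Its probe read 1002 with vehicle and 790 with IR-61. The scaled difference was −0.83, a 1.78-fold lower signal, against an SD between spots of 0.159. The signal was lower with IR-61 also before scaling, by a log2 difference of −0.34, and the scaled difference was the lowest among the 9 genes where *Runx1* was read by its brighter probe, while the dimmer *Runx1* probe was lower still, at −1.03. Of all measured genes, 2.30% had a lower value, and of the 1454 genes whose mean signal lay within 0.5 log2 units of that of *Spi1*, 3.99% did. The difference kept its sign in all 12 processing settings, from −0.91 with scaling by the median to −0.34 without scaling. Not all of these settings could move it. Those on probe choice and dim probes left it at −0.83 by construction, since the gene has 1 bright probe, and so did keeping outlier spots. The same limit holds below for every bright gene with a single probe, where settings are counted.

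The other ETS factors, which share the DNA-binding domain of PU.1, did not move one way. Of 10 genes 9 were well above background on both arrays, *Erg* was on neither, and 2 were lower and 0 higher by 2-fold or more. *Ets2*, a target of growth factor signalling in macrophages, went from 1533 to 643, a difference of −1.74, and was 2-fold lower in every setting. *Spib*, the closest relative of PU.1, went from 335 to 232, a difference of −1.02, which was −0.53 without scaling. The highest value was that of *Fli1*, a factor of blood stem cells and megakaryocytes, at 8791 with vehicle and 19944 with IR-61 and a difference of 0.69. The median of the 9 genes was −0.54 and stayed below 0 in every setting, from −0.63 to −0.04.

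Among 30 myeloid genes known to depend on PU.1, all 29 named on the array were well above background on both. Their median difference was −0.23, with 20 values below 0 and 9 above it, and without scaling the median was 0.26. Of all measured genes, 38.8% lay below 0, but this share was not taken over genes of like signal. The list holds very bright genes, such as *Csf1r* at 95036 with vehicle. The 201 genes within 0.5 log2 units of *Cebpb*, which is of like brightness to *Csf1r*, had a median of −0.11. By 2-fold or more, 2 were lower and 1 was higher, against 1.39% and 1.99% of all measured genes. By 1.5-fold or more, 7 were lower and 3 higher, against 5.68% and 9.79%. *Itgb2*, the shared beta chain of the leukocyte integrins, had a difference of −1.29, from 19978 to 11454. *Fgr*, a Src family kinase of myeloid cells, had a difference of −1.18, from 2381 to 1474. Both differences were smaller without scaling, at −0.80 for *Itgb2* and −0.69 for *Fgr*. *Adgre1* was the 1 gene of this list higher by 2-fold or more, with a difference of 1.03, from 52489 to 149992, and a second probe of the gene gave 0.85. It passed 2-fold in 9 of 12 settings. *Csf1r*, the receptor for macrophage colony-stimulating factor and a classical PU.1 target, had a difference of 0.06, while its 2 other, dimmer probes gave −0.64 and −0.12.

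The 3 C/EBP genes among the lineage factors all had small negative differences after scaling and brighter spots with IR-61 before it. *Cebpa*, which drives the entry into the granulocyte and monocyte lineage, went from 3698 to 4087, a scaled difference of −0.34 (SD between spots 0.0951) that was 0.14 without scaling. *Cebpb*, a factor of the inflammatory and emergency response, went from 112702 to 129298, a scaled difference of −0.29 (SD between spots 0.0932) that was 0.20 without scaling. *Cebpd*, which amplifies the Toll-like receptor response, went from 19686 to 25408, a scaled difference of −0.12 (SD between spots 0.0932) that was 0.37 without scaling. The sign of each thus turned without scaling, and was negative in the other 11 settings. Relative to the median of all measured genes the differences were −0.44 for *Cebpa*, −0.39 for *Cebpb* and −0.22 for *Cebpd*. The genes of like mean signal, within 0.5 log2 units, had median differences of 0.11 for *Cebpa*, −0.11 for *Cebpb* (201 genes) and 0.13 for *Cebpd*. *Cebpb* thus lay less far below genes of its own signal than below all genes. Of the genes of like signal, 13.5%, 6.47% and 18.4% had a lower value. With quantile normalization and in the deposited table, the log2 difference of *Cebpb* itself moved from −0.29 to −0.18, and that of *Cebpd* was −0.18 as well. *Cebpa* and *Cebpb* differed by less than the SD between spots of either.

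The other C/EBP genes also had negative differences after scaling. *Ddit3* encodes CHOP, a C/EBP-like partner that blocks DNA binding by C/EBP proteins and is induced by stress of the endoplasmic reticulum. It went from 2701 to 1347, a difference of −1.49 that stayed past 2-fold in all 12 settings. *Cebpg*, a partner without an activation domain, went from 9449 to 8937 with a difference of −0.57. *Cebpe*, the C/EBP factor of late granulocytes, went from 304 to 307 with a difference of −0.48, which was 0.01 without scaling. Of these 3 genes 1 was thus lower by 2-fold or more and 0 were higher.

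Of 10 granulocyte genes that C/EBP proteins control, 9 were well above background on both arrays and *Ngp* was on neither. None differed by 2-fold or more in either direction, and the median difference was 0.40. By 1.5-fold or more, 3 were higher and 0 lower, against 9.79% and 5.68% of all measured genes. Of these 3, *Mpo* (33.2 to 72.6, SD between spots 0.41) and *S100a9* (16.5 to 35.8, SD between spots 0.51) were dim. With normexp background correction their differences were 0.05 and −0.14. The highest value was that of *Lcn2*, which encodes the iron-scavenging protein lipocalin 2, at 0.77 (325 to 777). The lowest was that of *Ltf*, the lactoferrin gene, at −0.42 (135 to 142), which was 0.07 without scaling. The median of the list stayed above 0 in every setting, from 0.08 to 0.89.

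*Maf*, which encodes c-MAF, was the 1 lineage factor above the median of all measured genes. Its probe read 7007 with vehicle and 19398 with IR-61. The scaled difference was 0.98, a 1.97-fold higher signal, against an SD between spots of 0.0932. Of the 16888 measured genes, 362 (2.14%) had a larger value, and of the 1224 genes of like mean signal, within 0.5 log2 units, 12 did (0.98%). The value was positive in all 12 settings, from 0.90 in the deposited table of log2 values to 1.47 without scaling, and reached 2-fold in 2 of them, without scaling and with normexp background correction at 1.02. Without *Maf*, the median of the lineage factors was −0.36.

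Genes known as targets of MAF or KLF proteins did not move one way. All 11 were well above background on both arrays, 2 were lower and 0 higher by 2-fold or more, and the median difference was 0.06, which turned to −0.07 at its lowest over the settings and was 0.54 without scaling. The complement genes *C1qa*, *C1qb* and *C1qc*, which resident macrophages express, had differences of 0.63, 0.38 and 0.70. *Il10*, the anti-inflammatory cytokine gene that c-MAF activates, went from 108 to 161, a difference of 0.08 that was −0.08 with normexp background correction. A pair of genes known as KLF2 targets stood at either end of the list. *S1pr1*, a lipid receptor of lymphocyte and macrophage migration, went from 2157 to 821, a difference of −1.88 that was −1.39 without scaling. *Thbd*, the thrombomodulin gene, went from 5089 to 12529, a difference of 0.81 that was 1.30 without scaling. The other gene lower by 2-fold or more was *Txnip*, an inhibitor of thioredoxin that responds to glucose, at −1.36 and, on its second probe, −1.34, and the first of these was −0.87 without scaling.

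**Figure D3:**
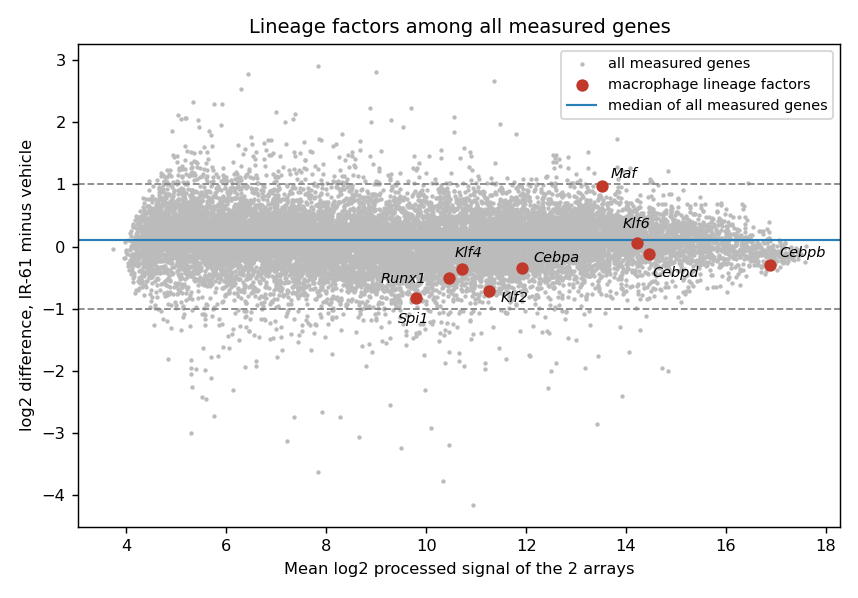
Scaled log2 difference, IR-61 minus vehicle, of the 16888 measured genes against the mean log2 signal of the 2 arrays, with the 9 lineage factors in red (*Runx1* by its brighter probe). The blue line is the median of all genes at 0.10 and the dashed lines are 2-fold differences. *Maf* lies near the upper edge of genes of its signal, *Spi1* and *Klf2* lie low among theirs, and the others lie within the bulk.

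The 3 KLF genes had 3 different positions. *Klf2*, which restrains inflammatory activation of monocytes and macrophages, went from 2660 to 2278. Its scaled difference was −0.71, a 1.64-fold lower signal, with an SD between spots of 0.0951, and it was negative in all 12 settings, from −0.79 to −0.22. Of the 1575 genes of like signal, 3.30% had a lower value. *Klf4*, a factor of monocyte differentiation and alternative activation, went from 1618 to 1757, a scaled difference of −0.37 (SD between spots 0.0951) that was 0.12 without scaling. *Klf6*, which supports inflammatory gene expression, went from 15725 to 22988, a scaled difference of 0.06 (SD between spots 0.0932) that was 0.55 without scaling and negative in 3 of 12 settings, down to −0.02. *Klf6* lay at the median of all measured genes to within the SD between spots, and *Klf2* lay below *Klf4* by more than the SD between spots of either.

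The promoters of *Klf2* and *Klf6* are shown because they belong to those 2 of the 3 KLF lineage factors that lay farthest apart. They are the 250 bases before the start of each gene as RefSeq gives it on the assembly GRCm38.p6, on the strand of the gene, with the motifs searched in capitals. *Klf2* lies on the plus strand with this window at chr8:72318812-72319061, and *Klf6* on the plus strand with its window at chr13:5861239-5861488.
Klf2: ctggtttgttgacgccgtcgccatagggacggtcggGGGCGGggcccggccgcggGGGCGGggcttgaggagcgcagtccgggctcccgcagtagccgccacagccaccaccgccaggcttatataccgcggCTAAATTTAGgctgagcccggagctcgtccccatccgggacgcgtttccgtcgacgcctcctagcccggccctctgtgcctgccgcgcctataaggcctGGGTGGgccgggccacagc
Klf6: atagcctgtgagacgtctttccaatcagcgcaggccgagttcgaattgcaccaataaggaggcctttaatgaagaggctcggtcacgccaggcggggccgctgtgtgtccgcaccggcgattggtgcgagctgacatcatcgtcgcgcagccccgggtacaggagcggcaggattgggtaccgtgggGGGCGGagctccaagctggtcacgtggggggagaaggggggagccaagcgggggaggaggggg
In the *Klf2* window the capitals are a pair of GC boxes, GGGCGG, at 214 to 209 and 195 to 190 bases before the start, a MEF2 motif at 118 to 109 and a CACCC box, found as GGGTGG on this strand, at 19 to 14. In that of *Klf6* they are a single GC box at 63 to 58 bases before the start. The MEF2 motif was searched in a loose form, CTANNNNTAG, in which N is any base. This form was found in 3.20% of the 32851 windows of this length over all genes and in 1 of the 7 windows of lineage factors. The element of *Klf2* reads CTAAATTTAG, and the share of windows with only A and T in the middle was not counted. The GC box was found in 32.7% of all windows and in 4 of the 7, and the CACCC box, CCACCC, in 28.1% and 3 of the 7. Both strands were searched. A match of letters is no shown binding site, and no binding was measured here.

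Of the 14 other KLF genes, 13 were well above background on both arrays, with 0 lower and 1 higher by 2-fold or more and a median difference of 0.06, which was −0.21 at its lowest over the settings and 0.55 without scaling. The gene past 2-fold was *Klf15*, a glucocorticoid-responsive metabolic regulator, at 1.77. Its signal was dim, at 41.2 with vehicle and 197 with IR-61, with an SD between spots of 0.41, and normexp background correction gave 0.92. The lowest was *Klf10*, an early gene of TGF-beta signalling, from 22237 to 15775, with a difference of −0.98 that was −0.50 without scaling. *Klf14* was well above background with IR-61 only, at 17.8 against 11.1 with vehicle. After scaling, 17.8 was 1.11-fold above the lowest signal of a detected probe on the vehicle array. The scaled difference of 0.19 lay within the SD between spots of the IR-61 array below a log2 signal of 6, which was 0.34. Its direction is therefore uncertain.

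*Runx1*, the founding factor of definitive blood formation, was read by 2 probes that differed from each other. The brighter probe, designed on transcript NM_001111022, read 1418 with vehicle and 1405 with IR-61, a scaled difference of −0.50 (SD between spots 0.0951) that was −0.01 without scaling. The dimmer probe, designed on NM_009821, read 912 and 625, a scaled difference of −1.03 (SD between spots 0.159) and a 2.05-fold lower signal, which was −0.54 without scaling. The probes thus had the same sign but lay 0.53 log2 units apart, more than the SD between spots of either. Among 1801 genes with 2 such probes, the median gap was 0.30 and the 90th percentile 0.77, and 25.3% had a wider gap than *Runx1*. *Runx1* therefore counts as lower by 2-fold or more if its dimmer probe is taken, and not with its brighter one.

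RefSeq gives *Runx1* a pair of start sites, a distal and a proximal promoter far apart on the minus strand, and both windows are shown because the probes of this gene disagree in size. Which start each probe's transcript uses is not settled by the tables used here. The distal window, start 1, lies at chr16:92826075-92826324 and the proximal one, start 2, at chr16:92697330-92697579, both on GRCm38.p6 and written on the strand of the gene.
Runx1 start 1: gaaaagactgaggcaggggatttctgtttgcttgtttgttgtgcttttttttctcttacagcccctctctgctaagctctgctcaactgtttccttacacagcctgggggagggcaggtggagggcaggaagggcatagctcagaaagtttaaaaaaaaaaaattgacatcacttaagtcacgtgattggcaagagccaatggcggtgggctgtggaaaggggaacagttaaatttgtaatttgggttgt
Runx1 start 2: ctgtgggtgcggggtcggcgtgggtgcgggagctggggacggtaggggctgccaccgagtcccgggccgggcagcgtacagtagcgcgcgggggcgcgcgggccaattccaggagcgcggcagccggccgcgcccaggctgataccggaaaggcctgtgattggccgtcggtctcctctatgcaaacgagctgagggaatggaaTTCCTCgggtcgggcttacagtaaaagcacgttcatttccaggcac
The capitals in the window of start 2 are the PU.1 core GAGGAA read on the other strand, TTCCTC, at 46 to 41 bases before the start. This core was found in 23.3% of all windows and in 1 of the 7 windows of lineage factors. The window of start 1 held none of the 7 motifs searched, and its G and C bases made up 45.6%, against 67.6% at start 2 and a median of 52.4% over all windows. The C/EBP letters TTGCG were found in 14.5% of all windows and in 1 of the 7, that of *Cebpa*, at 185 to 181 bases before its start. The RUNX motif TGTGGT and the MAF letters TGCTGA, found in 14.0% and 16.1% of all windows, were in none of the 7. The 7 windows belong to 6 of the lineage factors, all but *Spi1*, *Cebpd* and *Maf*.

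The relatives and partners of RUNX1 had positive differences by their brighter probes, while dimmer probes of 3 of them were negative. All 5 were well above background on both arrays, 0 differed by 2-fold or more in either direction, and the median difference was 0.45, with a range of 0.34 to 0.94 over the settings. *Cbfb*, the shared subunit that stabilizes RUNX proteins on DNA, went from 20224 to 38679, a difference of 0.45 with an SD between spots of 0.0932. The highest was *Cbfa2t3*, a co-repressor, at 0.99 (220 to 615), but its other probes gave 0.24 and −0.15. The lowest was *Runx3*, at 0.05 (166 to 240), and its second probe gave −0.96. *Runx2*, the factor of bone formation, was dim, with a difference of 0.24 on the probe used (22.7 to 37.6) and −0.67 on its other probe (28.9 to 25.5).

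The other transcription factors of myeloid cells centred near 0. Of 19 genes 17 were well above background on both arrays, 1 was lower and 0 were higher by 2-fold or more, and the median difference was 0.01, which was −0.07 at its lowest and 0.50 without scaling. *Nr4a1*, an early-response nuclear receptor that patrolling monocytes need, went from 1264 to 870, a difference of −1.03 that was −0.54 without scaling. The highest was *Lmo2*, a bridging protein of blood stem cell complexes, from 12415 to 29230 with a difference of 0.75. *Gfi1*, a repressor of granulocyte development, was well above background with vehicle only, at 30.8 against 11.0 with IR-61, and *Myb* was on neither array. After scaling, the vehicle signal of *Gfi1* was 2.98-fold above the lowest signal of a detected probe with IR-61, 14.5. That is no strict limit, since *Myb* read 16.3 on that array without being well above background. Below a log2 signal of 6 the SD between spots of the vehicle array was 0.37.

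Of 10 co-regulators of these factors 9 were named, and all 9 were well above background on both arrays. By 2-fold or more 1 was lower and 0 were higher, and the median difference was −0.15, which was 0.33 without scaling and 0.13 with only probes of a log2 signal of at least 8. The lower gene was *Trib1*, an adaptor that sends C/EBPα to the proteasome, from 1567 to 1057 with a difference of −1.06, and its second probe gave −1.10. Without scaling its brighter probe gave −0.57. The highest was *Asxl1*, a chromatin regulator, from 3774 to 7232 with a difference of 0.45.

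**Figure D4:**
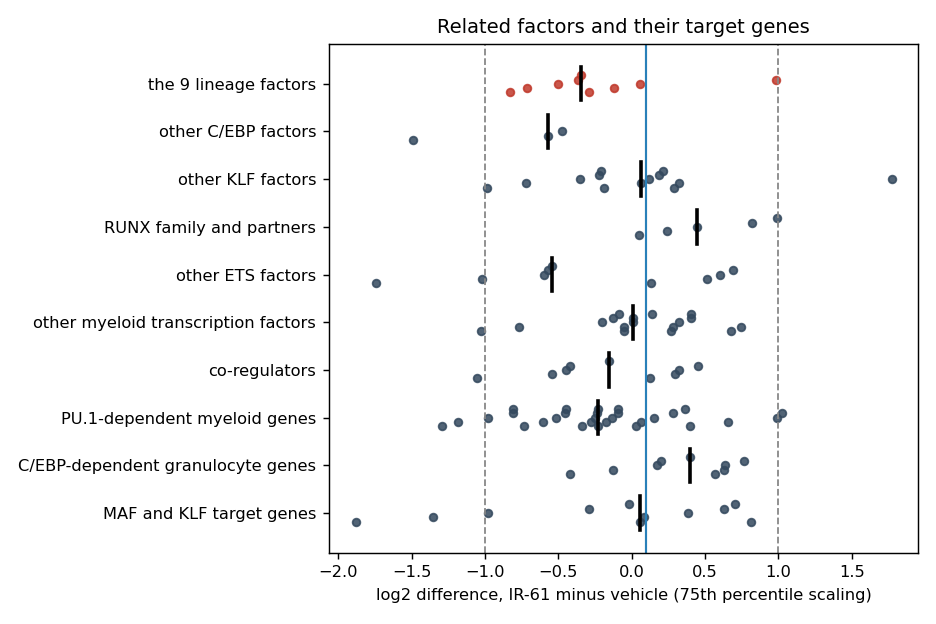
Scaled log2 difference, IR-61 minus vehicle, of every gene well above background on both arrays in the lineage factors (red) and in 9 lists of related factors and known target genes (dark points). Black bars are the list medians, the blue line is the median of all measured genes at 0.10 and the dashed lines are 2-fold differences. The lineage factors have a median of −0.34, other ETS factors −0.54, PU.1-dependent genes −0.23 and C/EBP-dependent granulocyte genes 0.40, and without scaling the first and the third of these turn positive, at 0.14 and 0.26.

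**Figure D5:**
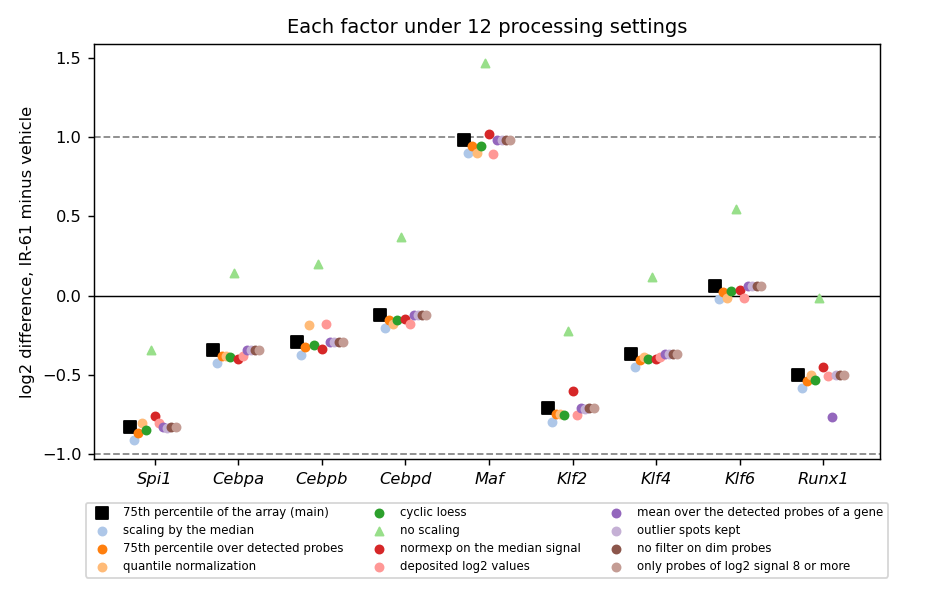
Log2 difference, IR-61 minus vehicle, of each lineage factor under 12 processing settings, with the value as reported as a black square and that without scaling between arrays as a triangle. The dashed lines are 2-fold differences. *Spi1* and *Klf2* lie below 0 and *Maf* lies above 0 in all 12 settings, while *Cebpa*, *Cebpb*, *Cebpd* and *Klf4* turn positive without scaling and *Klf6* lies on either side of 0.

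Settings that shift a whole array, such as no scaling, cannot move a gene relative to the others, so the range relative to the median gene comes from the remaining settings. Between 7 and 8 of the 9 lay below the median of all measured genes in every setting, the lower count with normexp background correction, where *Klf6* passed the median gene by 0.07. Relative to that median *Spi1* ranged from −0.93 to −0.73, *Klf2* from −0.81 to −0.57 and *Klf4* from −0.47 to −0.37. *Runx1* had the widest range, from −1.13 with its dimmer probe to −0.42 with normexp, and lay at −0.84 with the mean of its probes. *Maf* ranged from 0.85 to 1.05 above it.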

How the data were processed

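RNA of RAW264.7 cells treated with vehicle or IR-61 was labelled with Cy3 and hybridised to 1 Agilent mouse array per condition, both on the same slide and in the same scan. The authors deposited spot intensities, background-subtracted and detrended by Feature Extraction, with version 11.0.1.1 named per the file headers and 11.0.0.1 in the submitters' processing notes. A second deposited file gives 1 log2 value for each probe and array, and its columns share their median and upper quartile. How that table was made is not given in the sources used here. Its columns correlated with the log2 intensities with r of 0.9995 for vehicle and 0.9988 for IR-61, each over 39419 probes.

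From the intensities, control spots and the 124 (vehicle) and 139 (IR-61) outlier spots were left out, spots of a probe were averaged on the log2 scale, and each array was scaled to its own 75th percentile. RefSeq accessions, without version, were looked up in a gene table of GRCm38.p6, which served for names only, and gave 27224 of 39419 probes a name. A gene took its brightest unsaturated probe and was measured where that probe was well above background on both arrays. Probes well above background numbered 30581 with vehicle and 32016 with IR-61. Precision is limited by having 2 arrays.

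The rule for named genes took all lineage factors with all probes and, of each list, the genes lower or higher by 2-fold or more and those with the highest and lowest value. *Csf1r*, *Cbfb*, *Cebpg*, the C1q genes and *Il10* were named for their roles, with their values known. Another list of related genes is not reported here. Lineage factors and lists were chosen with earlier results of these data known. Alternatives covered scaling, background correction (normexp, offset 50), outlier spots, dim probes, probes of a gene and the fold limit. Calculations used Python 3.11.15, pandas 2.3.3, numpy 2.4.6, and limma 3.58.1 in R 4.3.3, and were tested on simulated data.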

Additional observations from a re-analysis of the deposited data

How the results depend on the processing

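The median difference of the 9 lineage factors stayed between −0.43 and −0.34 under every alternative except no scaling, where it was 0.14. The count of lineage factors lower by 2-fold or more was 0, except 1 with the dimmer probe of *Runx1*, an alternative chosen after seeing the data, and 2 at a limit of 1.5-fold. The count higher was 0, except 1 each without scaling, with normexp background correction and at 1.5-fold. Of all measured genes 235 were lower and 336 higher. Without scaling these were 72 and 2156, with normexp 149 and 124, with no filter on dim probes 440 and 921, with probes of a log2 signal of at least 8 only 137 and 139, and at 1.5-fold 960 and 1653. The lower genes made up 41.2% of those past 2-fold, against 54.2% with scaling by the median, 52.1% with quantile normalization, 53.6% with cyclic loess, 51.4% in the deposited table, 54.6% with normexp and 3.23% without scaling. Normexp was run on the median spot signal, and 4 spots of the IR-61 array whose local background exceeded their signal took the median background of the array. The cause was not tested for any of these moves. No paired analysis was possible because vehicle and IR-61 had a single array each, and no replicate could be left out. Below a log2 signal of 6 the SD between spots of 1 array reached 0.37, so values of dim genes such as *Klf15* are less certain than those of the lineage factors.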
